A study of Mus musculus with 3 samples.

Results

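The 9 genes Spi1, Cebpa, Cebpb, Cebpd, Maf, Runx1, Mef2c, Tfec and Bcl6 encode transcription factors that set or maintain the macrophage lineage. They were taken by symbol from 55536 annotated genes, and each symbol had a single gene identifier. A gene is called measured here where its expected counts averaged 10 or more per library. All 9 genes were measured, as were 15881 of all annotated genes and 11960 of 22028 protein-coding genes. The RNA came from mouse bone marrow-derived macrophages of the C57BL/6J strain, primary phagocytes grown from marrow progenitors, that had been given 100 ng/ml Lipid A for 15 min. Lipid A is the part of bacterial lipopolysaccharide that Tlr4 binds. Total RNA of the nuclear fraction, called nucleoplasmic in the library notes, was depleted of ribosomal RNA and sequenced. The samples form 1 group of 3 biological replicates. Every sample had the strain, agent, dose, time and fraction in common; the age and sex of the animals were not recorded, and the labels give separate biosamples under the same donor entry, so differences among the libraries may be technical. No untreated or later sample was analysed here, and the values describe a level at this time and not a response to Lipid A.

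PU.1, the product of Spi1, is an ETS-family factor that opens chromatin at myeloid enhancers, and macrophages do not form without it. The C/EBP factors are leucine-zipper proteins that bind beside PU.1 at many of these enhancers, and Runx1 and Mef2c act in the progenitors from which monocytes arise as well as in mature cells. Maf, Tfec and Bcl6 are known for later roles: c-Maf in limiting self-renewal and activating Il10, Tfec as a Mit/Tfe factor found mainly in macrophages, and Bcl6 as a repressor of inflammatory genes.

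An expected count is a number of reads assigned to a gene after a model has divided reads that fit several genes. The totals over annotated genes were 18516063, 17345644 and 20947006 for replicates 1 to 3. The starting amount of RNA was 500 ng for replicate 2 and 1 µg for the others. A total of 0 counts allows up to 3 counts in a library, or 0.162, 0.173 and 0.143 CPM (counts scaled to the total in annotated genes), which covers counting error only. The label macrophage was checked against marker lists. All 8 macrophage markers were measured, with a summed level of 2755 to 3760 TPM (a relative abundance corrected for transcript length). Cd3e, Ocstamp, Calcr, Tpsb2 and Pdgfra, which mark T cells, osteoclasts, mast cells and fibroblasts, had 0 counts in every library. Of the marker lists of other cells, 0 of 6 B cell and 0 of 5 erythroid genes were measured, 1 of 5 mast cell and 1 of 5 fibroblast genes, 2 of 8 neutrophil genes, 3 of 5 osteoclast genes and 5 of 6 dendritic cell genes, and none of these lists summed to more than 4.18 TPM. T cell markers summed to 12.3 to 31.5 TPM, nearly all of it from Cd4. Endothelial markers summed to 24.1 to 38.1 TPM, led by Vwf at 27.0 ± 7.22 TPM, and megakaryocyte markers to 50.4 to 221 TPM, led by Pf4 at 110 ± 95.4 TPM (SD, n = 3). In bulk RNA, fewer cells of a type and less RNA per cell cannot be told apart.

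Runx1 and Mef2c are shown first as sequence, because their counts divided between transcripts with several annotated starts, described further on. Of the 9 genes, 6 were matched by symbol in the RefSeq promoter table (build GRCm38.p6), all but Spi1, Cebpd and Maf, with 10 windows between them. Each window runs 5′ to 3′ from 250 bases before a start to 50 bases after it. Capitals mark matches, on either strand, to any of 6 motifs: GAGGAA for the core of a PU.1 site, TTGCNNAA for C/EBP factors, TGACG for part of a cAMP response element, TTCNNNGAA for Stat factors, TATAAA for the TATA box and CCAAT for the box of that name. The Runx1 windows are the distal start (chr16:92826025-92826324, minus strand) and the proximal start (chr16:92697280-92697579, minus strand). The Mef2c windows are the first start (chr13:83503784-83504083, plus strand) and the last of its windows (chr13:83573357-83573656, plus strand), whose start is that of transcript Mef2c-212. The group of starts that includes the first Mef2c start held only 4.04 ± 0.658% of the gene's counts. Mef2c-218, whose annotated start is that of the printed window, held 0.0654 ± 0.0721%. Mef2c-201 of the same group held 3.67 ± 1.03% and starts at 83504240, beyond the end of the window. The group of starts with most counts, 54.0 ± 2.77%, lies 20257 bases after the first start and is not among the windows printed.
Runx1 distal: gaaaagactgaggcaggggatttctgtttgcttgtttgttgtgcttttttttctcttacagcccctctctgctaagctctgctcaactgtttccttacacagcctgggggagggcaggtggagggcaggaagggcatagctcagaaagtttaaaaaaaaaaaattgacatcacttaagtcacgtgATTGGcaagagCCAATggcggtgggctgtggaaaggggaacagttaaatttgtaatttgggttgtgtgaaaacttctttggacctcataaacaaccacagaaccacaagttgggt
Runx1 proximal: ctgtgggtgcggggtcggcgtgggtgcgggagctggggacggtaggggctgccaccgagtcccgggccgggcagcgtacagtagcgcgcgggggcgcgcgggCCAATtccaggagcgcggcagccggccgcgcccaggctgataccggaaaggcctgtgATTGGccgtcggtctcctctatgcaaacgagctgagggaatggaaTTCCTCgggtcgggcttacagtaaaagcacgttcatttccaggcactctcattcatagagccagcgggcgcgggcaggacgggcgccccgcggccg
Mef2c first: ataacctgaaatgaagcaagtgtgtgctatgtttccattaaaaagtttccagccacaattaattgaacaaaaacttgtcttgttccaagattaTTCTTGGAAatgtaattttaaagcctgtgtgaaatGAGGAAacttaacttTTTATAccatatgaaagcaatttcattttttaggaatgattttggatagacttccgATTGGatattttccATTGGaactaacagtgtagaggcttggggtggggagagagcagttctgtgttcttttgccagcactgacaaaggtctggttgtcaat
Mef2c last: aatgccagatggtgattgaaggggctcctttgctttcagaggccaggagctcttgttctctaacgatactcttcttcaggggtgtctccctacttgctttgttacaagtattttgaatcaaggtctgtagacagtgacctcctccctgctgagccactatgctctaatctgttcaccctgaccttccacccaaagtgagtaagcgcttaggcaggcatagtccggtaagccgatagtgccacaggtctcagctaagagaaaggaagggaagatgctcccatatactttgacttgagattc

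Both Runx1 windows held 2 CCAAT matches, and the proximal one also held the PU.1 core. The distal window had 45.0% G and C, and the proximal window 69.0%. The first Mef2c window had 35.7% G and C and matches to 4 of the motifs, and the last had 48.3% G and C and no match. Elsewhere among the genes, the Cebpa window (chr7:35119043-35119342) carried a TATA box beginning at position -30 from its start. The Cebpb window (chr2:167688665-167688964) was the richest in G and C, at 80.7% against a median of 52.7% over all windows, and held the cAMP response motif 3 times. The second Bcl6 window (chr16:23981234-23981533) held the Stat motif 3 times. Over the 10 windows, the PU.1 core was in 5, the TATA box in 4, the CCAAT box in 4, the Stat motif in 3, the cAMP response motif in 2 and the C/EBP motif in 0. Among all 32851 windows of the table these letters occurred in 28.3%, 13.6%, 37.4%, 8.30%, 20.8% and 10.8%. A match to TATAAA is a match of letters at any position: that of Cebpb began at position 21, after its start. Those of Mef2c, at -107 and -22, were on the opposite strand. The Stat motif reads the same on both strands, and no match says only that these letters are not in the window.

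By level, Maf stood first and Cebpd last, with a 47.8-fold span between their mean TPM values. In the other transcript table, deposited beside the first and here called the second table, all 9 mean levels were lower. Runx1 stood first there at 47.0 TPM, ahead of Maf at 41.6, and Cebpd again last at 0.760. The 10 highest genes held 76.6%, 55.2% and 92.7% of TPM in that table in replicates 1 to 3. Maf had 32.8, 79.8 and 12.2 TPM there, so replicate 2 weighs most in its mean. Estimated counts of all 9 genes, like the library totals, were higher there than in the first table. The median of the 9 genes was 26.3 ± 0.821 TPM, against 6.70 ± 1.07 TPM for measured protein-coding genes (SD, n = 3). The part of TPM that protein-coding genes held differed between libraries, at 27.6%, 35.6% and 21.3% in replicates 1 to 3. Which RNAs made up the rest was not tested. Genes are therefore compared by TPM within a library, and libraries by counts.

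**Figure D1:**
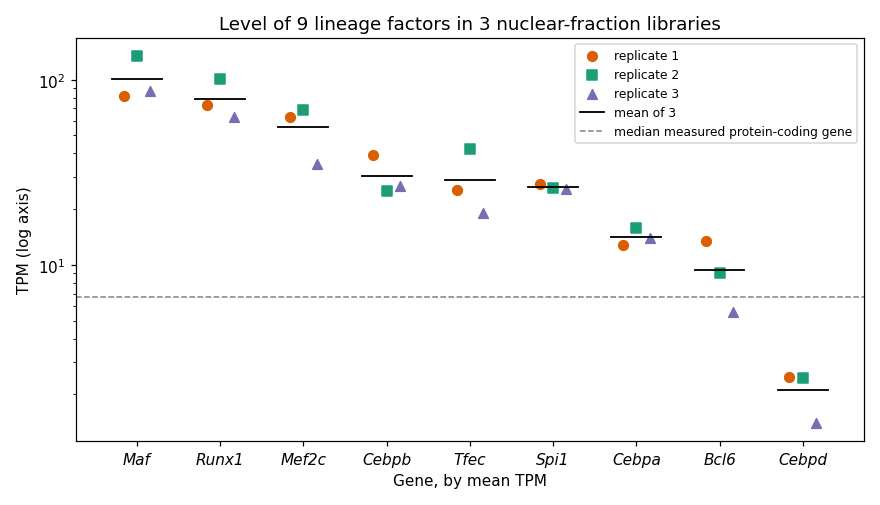
TPM on a log axis of the 9 lineage factor genes in each of 3 libraries (symbols) with the mean (black line), beside the mean over libraries of the median measured protein-coding gene (dashed line, 6.70 TPM). Every gene except Cebpd, and Bcl6 in replicate 3 at 5.57 TPM, lies above the dashed line. The median of replicate 3 alone was 5.46 TPM, so Bcl6 was above the median of its own library there.

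Spi1 (ENSMUSG00000002111.8, GRCm38 chr2:91082390-91115756) had 27.2, 25.9 and 25.7 TPM in replicates 1 to 3, from 749, 614 and 1027 counts. Relative to their mean of 26.3 ± 0.821 TPM (SD, n = 3), these values lay closer together than those of any other of the 9 genes, and 85.3% of measured protein-coding genes were below that mean. On scaled counts, described below, its libraries did not agree as closely.

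Cebpb (ENSMUSG00000056501.3, chr2:167688915-167690418), an intronless gene whose product drives inflammatory and late monocyte genes, had 39.3, 25.2 and 26.6 TPM. Cebpa (ENSMUSG00000034957.10, chr7:35119293-35121928), which commits progenitors to the granulocyte and monocyte branch, had 12.8, 15.7 and 13.9 TPM. Cebpd (ENSMUSG00000071637.5, chr16:15887286-15891031), known as an amplifier of Tlr4-driven transcription, had 2.49, 2.44 and 1.41 TPM. In each library Cebpb was the highest of the 3 and Cebpd the lowest. Cebpb exceeded Cebpa 2.10-fold (log2 difference of TPM + 0.1 within a library, 1.07 ± 0.49, SD, n = 3) and Cebpd 13.9-fold (3.80 ± 0.43). On the same log2 scale Cebpd minus Cebpa was -2.72 ± 0.46; Cebpd averaged 188 counts a library. Of the 3, Cebpd ranked low: 23.3% of measured protein-coding genes were below the mean of Cebpd, against 71.6% for Cebpa and 87.6% for Cebpb.

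Maf (ENSMUSG00000055435.6, chr8:115682942-115707794) had 81.7, 134 and 87.2 TPM, from 11324, 15289 and 15537 counts, and 97.7% of measured protein-coding genes were below its mean of 101 ± 28.7 TPM. Runx1 (ENSMUSG00000022952.17, chr16:92601466-92826149), the runt-domain factor of blood cell formation, had 73.4, 100.5 and 62.7 TPM, with a mean of 78.9 ± 19.5. Mef2c (ENSMUSG00000005583.16, chr13:83504034-83667080), a MADS-box factor, had 62.8, 68.6 and 34.9 TPM, with a mean of 55.5 ± 18.0 (SD, n = 3 each). Each of these 3 genes had its highest TPM in replicate 2, and the ranges of Runx1 with Maf and of Mef2c with Runx1 overlapped across libraries although their order within each library was the same.

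Tfec (ENSMUSG00000029553.10, chr6:16833373-16898441) had 25.5, 42.2 and 19.0 TPM, with a mean of 28.9 ± 12.0. Bcl6 (ENSMUSG00000022508.5, chr16:23965052-23988852) had 13.4, 9.05 and 5.57 TPM, with a mean of 9.35 ± 3.93 (SD, n = 3 each). In TPM, Tfec was highest in replicate 2 and Bcl6 in replicate 1, and both were lowest in replicate 3.

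Of the 8 neighbouring pairs in the order of mean TPM, 5 kept their order in all 3 libraries with a mean above the SD. Maf exceeded Runx1 by 0.35 ± 0.17, Runx1 exceeded Mef2c by 0.54 ± 0.31 and Mef2c exceeded Cebpb by 0.84 ± 0.54 on the log2 scale of TPM + 0.1. Spi1 exceeded Cebpa by 0.89 ± 0.18 and Bcl6 exceeded Cebpd by 2.05 ± 0.29. The other pairs did not differ beyond their spread: Cebpb minus Tfec was 0.12 ± 0.75, Tfec minus Spi1 0.06 ± 0.58 and Cebpa minus Bcl6 0.68 ± 0.70 (SD, n = 3). Thus Cebpb, Tfec and Spi1 had means between 26.3 and 30.4 TPM, and their order differed between libraries. The two-sided exact sign-flip permutation test gave p = 0.25 for each pair with 1 sign in all libraries, which is the smallest value 3 libraries allow, so no pair could pass a threshold of 0.05. The exact permutation p was 1 for Cebpb with Tfec and for Tfec with Spi1, and 0.5 for Cebpa with Bcl6. In the second table Maf was below Runx1 (-0.14), Tfec below Spi1 (-0.72) and Tfec below Tfeb (-0.46). On counts not divided by length Spi1 was below Cebpa (-0.11).

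Each gene was then set beside relatives that share its DNA-binding domain and beside partners of its protein. In the ETS family, Spi1 exceeded Spib, a B cell factor, 112-fold (log2 6.81 ± 0.84) and Spic, known from red pulp macrophages of the spleen, 7.22-fold (2.85 ± 1.02, SD, n = 3). Spib had 0.110, 0.340 and 0.0400 TPM and Spic 1.57, 5.10 and 5.51 TPM in replicates 1 to 3. Spib is near the pseudocount, so its fold depends on it. Every family pair given here with a fold had the same sign in all 3 libraries, and p = 0.25 by the same exact permutation test. The closest relatives in level were Fli1 at 22.6 ± 6.54 TPM, Elf1 at 21.1 ± 7.42, Ets2 at 17.1 ± 7.88, Elf4 at 13.5 ± 3.76 and the repressor Etv6 at 9.25 ± 1.69 TPM. Ets1, a lymphocyte factor, was at 0.453 ± 0.265 TPM, and Erg, an endothelial and stem cell factor, had at most 1 count in a library.

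In the C/EBP family, Ddit3, the stress-response member, was at 30.1 ± 5.06 TPM and Cebpg at 20.5 ± 2.17 TPM, so that Ddit3 was level with Cebpb and Cebpg lay between Cebpb and Cebpa in mean TPM. Cebpe, which acts in granulocyte maturation, had a mean of 2 counts. The small Maf proteins share the DNA-binding domain of c-Maf but lack an activation domain. Of their genes, Mafg was at 36.0 ± 14.2, Mafk at 6.23 ± 0.334 and Maff at 4.29 ± 2.49 TPM, and their partner Bach1 was at 20.7 ± 4.89 TPM.

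Runx1 exceeded Runx2, the bone factor, 19.8-fold (log2 4.31 ± 0.47) and Runx3 125-fold (6.96 ± 0.70). Runx3 had only 0.92, 0.46 and 0.32 TPM, so its fold depends on the scaling. The log2 difference was 5.66 with a pseudocount of 1 and 7.15 with TPM of protein-coding genes. Runx1 exceeded Cbfb, the subunit that stabilises Runx proteins on DNA, 4.52-fold (2.18 ± 0.35, SD, n = 3), with Cbfb at 17.3 ± 3.59 TPM. Mef2c was not separated from Mef2a, which had 86.5, 71.3 and 34.8 TPM: the log2 difference was -0.17 ± 0.25, and 2 of 3 libraries had the same sign (exact permutation p = 0.5). Mef2c exceeded Mef2d 1.93-fold (0.95 ± 0.34), with Mef2d at 27.8 ± 4.26 TPM, and Mef2b had at most 1 count in a library.

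Tfec and its relatives Mitf, Tfe3 and Tfeb, which govern lysosomal genes, had mean levels between 14.7 and 29.4 TPM. Tfec exceeded Mitf 1.45-fold (log2 0.54 ± 0.43) and Tfeb 1.89-fold (0.92 ± 0.68), and its difference from Tfe3 was -0.10 ± 0.46 (SD, n = 3), with both signs among the libraries. Mitf was at 19.2 ± 4.15, Tfe3 at 29.4 ± 3.64 and Tfeb at 14.7 ± 2.96 TPM. On counts not divided by length, Tfec was below Mitf (log2 CPM difference -0.40) and Tfe3 (-1.17) and above Tfeb (1.05). In the second table Tfec was below Tfeb (-0.46) and near Mitf (0.0724) and Tfe3 (0.0424). Bcl6 exceeded Bcl6b 16.9-fold (4.08 ± 0.21). Bcl6b had only 0.78, 0.36 and 0.26 TPM. The log2 difference was 2.76 with a pseudocount of 1 and 4.30 with TPM of protein-coding genes. Of the corepressors that Bcl6 recruits, Ncor1 was at 81.8 ± 21.8 and Bcor at 4.63 ± 0.280 TPM (SD, n = 3).

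**Figure D2:**
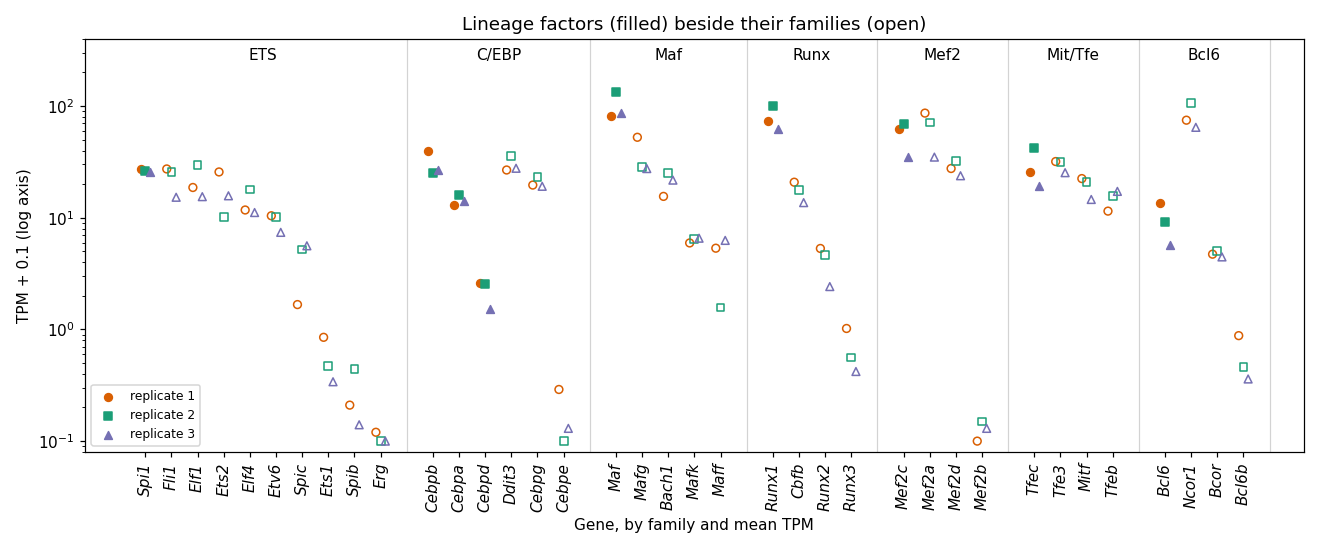
TPM + 0.1 on a log axis of the 9 genes (filled) and of their relatives and protein partners (open) in each of 3 libraries, grouped by family. Spi1, Maf, Runx1, Tfec and Mef2c lie at or near the top of their families, whereas Cebpa and Cebpd lie below Ddit3 and Cebpg, and Bcl6 below Ncor1.

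All 22 targets and partners of these factors known in macrophages were measured, and their median level was 74.6 ± 10.1 TPM (SD, n = 3). Their highest gene was Lyz2, the lysozyme of myeloid cells, at 1978 ± 377 TPM, and the lowest Irf4 at 0.607 ± 0.116 TPM. Of 12 factors of other blood lineages, 3 were measured. The highest was Tal1, a factor of red cell and megakaryocyte precursors, at 4.09 ± 2.47 TPM, and 8 of the 12 had at most 3 counts in every library. Gata3 and Gfi1b had 0 counts in all 3 libraries. All of the 9 genes except Cebpd were above Tal1 in mean TPM.

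Libraries were compared on log2 CPM scaled with edgeR's TMM factors, over the 15881 measured genes. None of the 9 genes was at least 2-fold above both other libraries, where 4.85% of all genes were in replicate 1, 0.856% in replicate 2 and 1.55% in replicate 3. None was at least 2-fold below both others either, where 3.22%, 2.22% and 1.39% of all genes were. The counts of 0 of 9 are near these shares. At a limit of 1.5-fold, Bcl6 was above both other libraries in replicate 1, as were 10.4% of all genes, and Cebpb was below both in replicate 2, as were 6.26%. The other directions and libraries, with 3.99% to 8.46% of all genes past that limit, held 0 of the 9.

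Bcl6 had 59.1, 36.9 and 32.4 scaled CPM in replicates 1 to 3, so that replicate 1 was 1.71-fold above the mean of the others on the log scale. Megakaryocyte markers, 2 of 4 measured and none at 0 in all libraries, had summed levels of 221, 63.0 and 50.4 TPM, highest in the same library. Nearly all of this sum was Pf4, with 220.2, 60.75 and 49.8 TPM from 1594, 376 and 449 counts. Counts are given because TPM is not the measure used here between libraries. The other measured marker, Itga2b, was highest in replicate 2, with 0.54, 1.9 and 0.32 TPM. The part of these markers in the value of Bcl6 was not tested. Cebpb had 64.6, 38.3 and 58.7 scaled CPM, and replicate 2 was at 0.622 of the others. Replicate 2 is also the library made from 500 ng of RNA, and the part of this quantity was not tested. Maf had 574, 867 and 806 scaled CPM, with replicate 1 at 0.687 of the others. T cell markers, 2 of 6 measured and Cd3e at 0, had summed levels of 12.3, 31.5 and 21.2 TPM, also lowest in replicate 1. Nearly all of this sum was Cd4, with 11.9, 31.25 and 20.9 TPM from 736, 1762 and 1762 counts, so replicates 2 and 3 were level in counts. The other measured marker, Tcf7, was highest in replicate 1, with 21, 9 and 8 counts. The part of these markers in the value of Maf was not tested.

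Spi1 had 38.1, 34.9 and 53.4 scaled CPM and Cebpa 37.9, 43.0 and 54.7. Both were highest in replicate 3, at 1.46 and 1.36 times the others. Mef2c had 225, 257 and 170 scaled CPM, with replicate 3 at 0.705 of the others, and Cebpd had 11.4, 10.3 and 8.51, likewise lowest in replicate 3. Runx1 had 266, 294 and 259 scaled CPM and Tfec 51.7, 63.1 and 51.8, both highest in replicate 2. Replicates 1 and 3 were level for Tfec. Libraries thus ranked the genes in different ways: replicate 1 was the lowest for Maf and Cebpa and the highest for Bcl6, Cebpb and Cebpd.

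**Figure D3:**
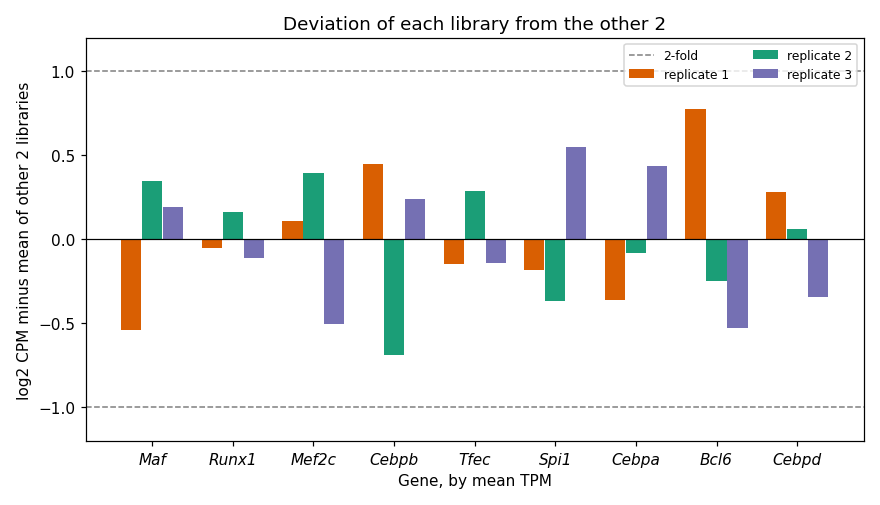
Deviation of each library from the mean of the other 2, in log2 CPM after TMM scaling, for the 9 genes in the order of mean TPM, with dashed lines at 2-fold. No bar reaches 2-fold; the longest are Bcl6 in replicate 1 (0.77) and Cebpb in replicate 2 (-0.69).

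The SD of log2 CPM over the libraries had a median of 0.306 for the 9 genes. It was 0.320 for all measured genes and 0.252 for the 8401 genes at or above the mean level of Cebpd, the lowest of the 9. Runx1 varied least, with an SD of 0.0978 and a highest library 1.14 times the lowest; 7.73% of measured genes had a lower SD. With library totals in place of TMM factors, Cebpa varied less than Runx1 (SD 0.162 and 0.172), and in the second table Tfec and Runx1 were level (0.0543 and 0.0549). Bcl6 varied most, with an SD of 0.456 and a highest library 1.82 times the lowest, and 69.4% of genes had a lower SD. The median SD of the 9 genes, against that over all genes, was 0.201 against 0.224 without replicate 1, 0.294 against 0.278 without replicate 2 and 0.134 against 0.275 without replicate 3.

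Likeness was measured as the distance between log2 CPM values centred on their mean over the 3 libraries, among 48 candidates averaging 100 counts or more: the other 8 of the 9 genes, and 40 from the family, target and other-lineage lists. Nearest to Spi1 were C1qb (0.0281) and Fcgr1 (0.0565), a complement gene and an Fc receptor gene. Nearest to Cebpa were Fcgr3 (0.0642) and Mafk (0.0977), and, of the genes reported here, to Cebpb Csf2ra (0.175) and Itgb2 (0.243). Tfec lay nearest to Tlr4 (0.0603) and then to Runx1 (0.103), and Runx1 to Tfec (0.103) and Mitf (0.109). For Cebpd they were Cbfb (0.125) and Fli1 (0.138), for Maf Elf4 (0.122) and Ddit3 (0.200), for Mef2c Runx2 (0.153) and Mitf (0.263), and for Bcl6 Mef2a (0.278) and Cbfb (0.312). With only 3 libraries, which all genes share, these distances are a description.

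In a nuclear fraction, unspliced and partly spliced RNA is sampled together with mRNA, and counts were therefore divided by the annotated type of transcript. Tfec, Mef2c, Bcl6 and Runx1 have transcripts classed as retaining an intron. They took 67.4%, 58.8% and 62.9% of the counts of Tfec in replicates 1 to 3. They took 50.4%, 50.04% and 41.9% of those of Mef2c, 32.6%, 35.2% and 36.0% of those of Bcl6 and 31.4%, 20.6% and 25.9% of those of Runx1. By counts Tfec was highest, and its libraries overlapped with those of none of the others. The median of 7232 measured genes with such a transcript was 18.8 ± 0.963%. Of these genes, 90.3% had a lower mean share than Tfec (63.0 ± 4.29%), 80.8% than Mef2c (47.4 ± 4.83%), 69.9% than Bcl6 (34.6 ± 1.78%) and 59.5% than Runx1 (25.9 ± 5.40%, SD, n = 3).

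Single transcripts carried most of these shares. In Tfec it was Tfec-203, with 60.6 ± 3.97% of the gene's counts, and in Mef2c it was Mef2c-209, a single-exon transcript of 4553 bases with 36.8 ± 2.96%. In Runx1 it was Runx1-206 alone. Runx1 also had a processed transcript, Runx1-207, with no open reading frame annotated, which took 25.0%, 41.7% and 33.3% of its counts, most in replicate 2. Protein-coding transcripts held 40.7 ± 2.92% of the counts of Runx1, 37.0 ± 4.29% of Tfec, 52.5 ± 4.81% of Mef2c and 65.4 ± 1.78% of Bcl6. Taken over TPM in place of counts, which gives short transcripts more weight, the order of the leading genes turned: the retained-intron share was 39.9% for Mef2c, 36.2% for Tfec, 32.0% for Bcl6 and 18.8% for Runx1, and protein-coding transcripts held 63.8% of Tfec. These shares are estimates, because reads in exons common to several transcripts are divided by a model.

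**Figure D4:**
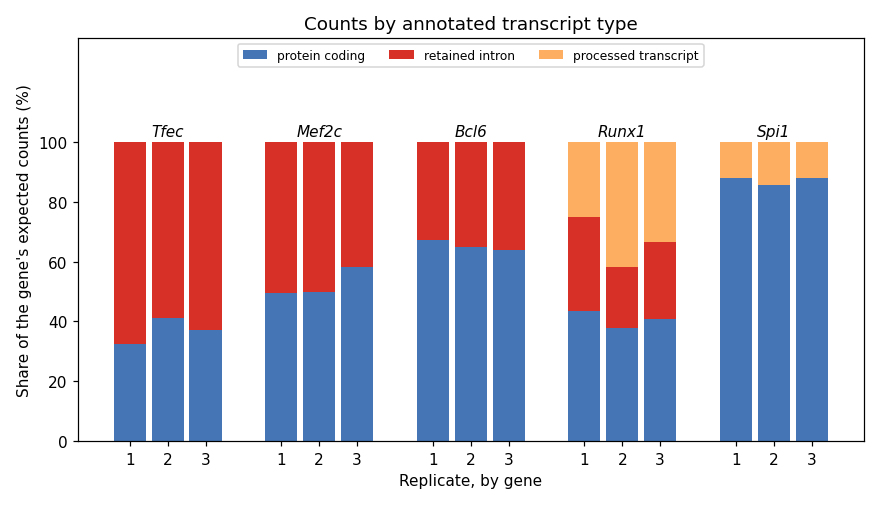
Share of each gene's expected counts (percent, stacked bars, 1 bar per replicate) by annotated transcript type, for the genes with a type other than protein coding above 1%. Retained-intron transcripts took 58.8% to 67.4% of the counts of Tfec and none of those of Spi1, which has none annotated.

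The remaining genes have no annotated retained-intron transcript. For Maf, 88.6 ± 0.220% of counts (SD, n = 3) fell to Maf-202, a single-exon transcript of 6360 bases, and 11.4 ± 0.220% to Maf-201, which has 3 exons. Cebpa had 82.5 ± 0.591% in its single-exon transcript Cebpa-201. Cebpb has 1 transcript, and in Cebpd all counts fell to the single-exon Cebpd-201.

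Transcripts were then grouped by annotated start, joining starts within 500 bases. Starts come from the annotation and were not measured. Reads of unspliced RNA from an upstream start can fall on a transcript that starts further downstream, so these shares do not measure promoter use. Runx1 is known to be transcribed from a distal and a proximal promoter, which give proteins with different first residues. The distal group (Runx1-201, Runx1-204 and Runx1-207) held 2307, 3537 and 2781 counts in replicates 1 to 3, or 44.0%, 68.1% and 55.8% of the gene. The proximal group, 128821 bases downstream (Runx1-202 and Runx1-206), held 2581, 1411 and 1749 counts, or 49.2%, 27.2% and 35.1%. The distal share was highest in replicate 2 and the proximal share in replicate 1, the only library in which the proximal group exceeded the distal one. The mean distal share was 56.0 ± 12.1% (SD, n = 3), and 55.0% in the second transcript table. Of the gene's counts, 33.3 ± 8.32% fell to the distal Runx1-207 and 25.9 ± 5.40% to the proximal Runx1-206, neither of them classed as coding. Among coding transcripts alone, the distal Runx1-201 took 18.6%, 25.8% and 21.5% of the gene's counts and the proximal Runx1-202 took 17.8%, 6.63% and 9.20%. The sequences of both promoters are given above; the start in the distal window is the annotated 5′ end of Runx1-207.

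Mef2c divided its counts mainly between a group of 10 transcripts starting 20257 bases after its first start and a group of 4 at 69573 bases, whose first transcript is Mef2c-212. They held 54.0 ± 2.77% and 40.6 ± 2.51% of counts, and the group of the first start 4.04 ± 0.658%. Both main shares differed little between libraries, at 56.5%, 51.1% and 54.5%, and 38.0%, 43.1% and 40.8% in replicates 1 to 3. Most of the larger group was the single-exon Mef2c-209, classed as retaining an intron, with 36.8 ± 2.96% of the gene's counts. The highest coding transcript of that group was Mef2c-223 at 4.83 ± 0.997% (13.0% in the second table). The coding Mef2c-212 of the later group held 32.5 ± 4.09% (23.1% in the second table). Spi1 had 84.5%, 84.8% and 86.4% of its counts in Spi1-201, its longest coding transcript, and 13.8 ± 0.768% in a group starting 13706 bases upstream that is mostly the processed transcript Spi1-202. In the second table the shares of Spi1 were 67.7% and 21.5%. Tfec had 88.1 ± 3.44% of counts at its first start, and Bcl6 had 65.4 ± 1.78% at the start of its coding transcript Bcl6-201 (SD, n = 3 each). By TPM in place of counts, the first start of Tfec held 54.5%, the later Mef2c group 25.1% and the group of the first Mef2c start 2.05%. The upstream group of Spi1 held 40.3% and Spi1-201 54.0%, and Maf-201 held 20.9% of its gene.

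**Figure D5:**
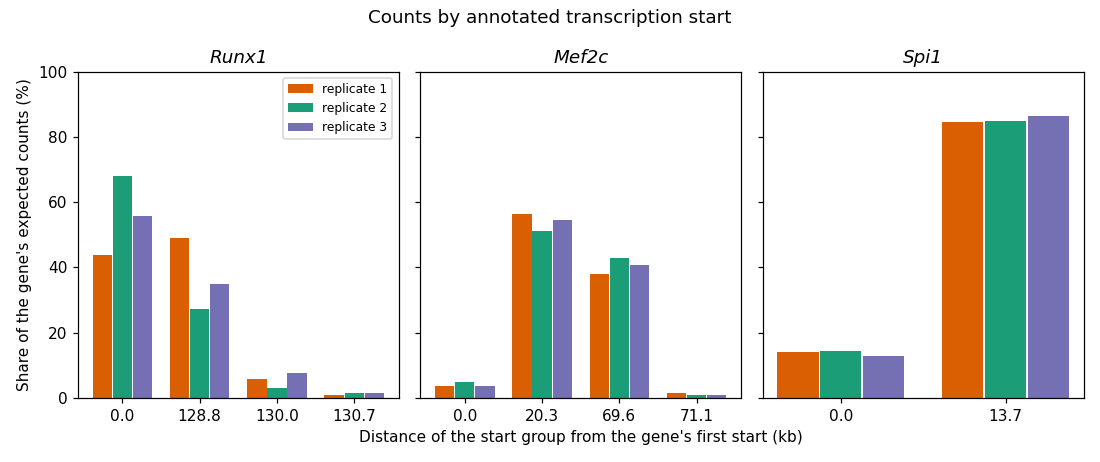
Share of the gene's expected counts (percent, bars, 1 per replicate) by annotated start group of Runx1, Mef2c and Spi1, against the distance of the group from the gene's first start in kb; groups under 1% are left out. The first group of Runx1 ranges from 44.0% to 68.1%, and the main groups of Mef2c and Spi1 vary less.

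Several of the genes overlap another gene on the opposite strand, and whether reads were counted by strand is not given in the sources used here. Maf shares 440 exon bases with the antisense RNA Gm15655, which had 109, 290 and 97.4 counts in replicates 1 to 3. Cebpd shares 562 of its 3746 exon bases with Spidr, a DNA repair gene with 540, 325 and 300.2 counts. In both pairs neither gene's count was whole in any library, but their sum was, to within 0.01, in all 3: 11433, 15579 and 15634 for Maf with Gm15655, and 762, 504 and 462 for Cebpd with Spidr. In both of these pairs, reads thus appear to have been divided between genes of opposite strands, and the low counts of Cebpd are uncertain to that extent. Cebpb shares 312 of its 1504 bases with Tmem189, which had 1968, 2273 and 2896 counts, more than Cebpb in each library. Both counts were whole in every library, so the sign of divided reads seen for Maf and Cebpd was absent here. The counts of Runx1 and Gm26626, which share 106 exon bases on opposite strands, were also whole. Whether reads in shared bases were assigned by strand is not known, and these pairs do not settle it. The neighbours of the remaining genes were low: Gm45091 beside Cebpa had 4, 4 and 10 counts, Gm26626 within Runx1 had 38, 38 and 35, and Gm37419 in Bcl6 had 0, 0 and 1. A530013C23Rik, a non-coding RNA gene that starts 2262 bases from Cebpb on the same strand, had 35, 73 and 60 counts.

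Genes of the family, target and other-lineage lists were held to the same 2-fold limit between libraries. Tal1 and Myb, both factors of other lineages, were above both other libraries in replicate 1. Spic and the granulocyte receptor gene Csf3r were below both in replicate 1, and Ets2, Maff, C1qa and Jun were below both in replicate 2. Csf3r had 855, 2846 and 2988 counts (15.3, 59.0 and 42.5 TPM) in replicates 1 to 3. C1qa, a complement gene, had 1474, 344 and 1028 counts (71.5, 20.2 and 37.4 TPM). These genes were named because they passed the limit, which 4.85%, 3.22% and 2.22% of all genes did.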

How the data were processed

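The authors deposited, for each of 3 libraries, a gene table and a transcript table with expected counts and TPM, per the file headers, whose column names are those RSEM writes. A second transcript table, deposited by the authors with kallisto's column names, holds estimated counts and TPM. A score column in the tables deposited by the authors, the upper credibility bound of TPM, was not used. The deposited notes name mm10 and GENCODE M21; no source used here gives program versions or strand. Rows naming no gene, which held 1.24%, 0.372% and 0.0641% of counts, were left out.

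The 9 genes and all lists were chosen with earlier results of these data known. All 9 genes, their families, the extremes of other lists and overlapping genes are named by rule, except that 2 genes of the family lists, and the difference that needs one of them, are not reported here. Genes were compared within a library by log2(TPM + 0.1), and each of 22 differences was tested by exact sign-flip permutation (two-sided), with no adjusted values, since 0.25 is the smallest p; folds are on this scale and understate differences of low genes. For libraries, expected counts were rounded, genes averaging 10 or more counts kept, and log2 CPM (prior count 2) taken from edgeR 4.0.16 in R 4.3.3; its TMM factors were 1.07, 1.02 and 0.921. In simulated data of 15876 genes, the 2-fold limit recovered 100 of 100 genes raised 4-fold in a library and 97 of 100 lowered 4-fold. It called 47 of 15676 unchanged genes. The simulated libraries varied less among themselves than the real ones, whose common coefficient of variation between replicates was 0.315. These simulated rates therefore do not give the rates of the limit in the real libraries. Counts of the libraries differed by 90.2 to 153 in chi-square per degree of freedom, so none is a copy of another. Transcript types, starts and coordinates came from GENCODE M21 (GRCm38). Alternatives were DESeq2 1.42.0 size factors, library totals, no filter, the second table, other pseudocounts and TPM scalings, and leaving out each replicate.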

Additional observations from a re-analysis of the deposited data

How the results depend on the processing

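Of 22 differences between genes, the second transcript table turned 6: Maf minus Runx1 (-0.14), Cebpb minus Tfec (-0.14), Tfec minus Spi1 (-0.72), Mef2c minus Mef2a (0.17), Tfec minus Tfe3 (0.0424) and Tfec minus Tfeb (-0.46, all log2). CPM without length turned 3: Cebpb minus Tfec (-0.0740), Spi1 minus Cebpa (-0.11) and Tfec minus Mitf (-0.40). Leaving out a replicate turned 3, with ranges of -0.13 to 0.55 for Cebpb minus Tfec, -0.26 to 0.30 for Tfec minus Spi1 and -0.36 to 0.0589 for Tfec minus Tfe3. Posterior mean TPM, TPM of protein-coding genes and a pseudocount of 1 turned none of the 22. The mean TPM of all 9 genes moved beyond its SD in the second table (lower) and with TPM of protein-coding genes (higher, since the denominator is smaller). The cause of the turns in order was not tested, except that CPM is not divided by length. At a limit of 1.5-fold, 1 of the 9 genes was above and 1 below both other libraries, against 0 and 0 at 2-fold. Over all genes, 1153 were above and 1085 below at 2-fold, 3065 and 3248 at 1.5-fold, and 2444 and 1900 with no filter, where more genes are tested; estimated counts of the second table gave 1755 above. The median SD of the 9 genes ranged from 0.134 to 0.294 when a replicate was left out. Retained-intron transcripts of the 4 genes that have them held 38.0 ± 3.27% of counts (SD, n = 3) and 28.9% of TPM. The distal share of Runx1 was 49.9% to 62.0% without a replicate. No paired analysis was possible because there is 1 group. Cebpd, at 162 to 222 counts, is the gene most limited by depth.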
